A study of Mus musculus with 5 samples.

Results

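The miR-106b-25 and miR-106a-363 clusters are paralogues of the miR-17 cluster (which runs from miR-17 to miR-92a), and the 6 probes described here carry the mouse names mmu-miR-106b, mmu-miR-93 and mmu-miR-25 for the first cluster and mmu-miR-106a, mmu-miR-20b and mmu-miR-363 for the second. They were chosen by name among the 343 mouse microRNA (miRNA) probes of an array of 1488 distinct probes, and each was spotted 2 times. Total RNA came from C2C12 cells, a mouse myoblast line that withdraws from the cell cycle and fuses into myotubes when serum is lowered. The 5 groups were proliferating cells at 70 to 80% confluence, confluent cells at 100%, and cells after 1, 2 and 4 days of differentiation in 2% horse serum, all of the same untransfected line, with 4 biological replicates and 4 arrays per group. Each of the 20 two-colour arrays set a sample beside a common pool of 4 proliferating replicates, so every value below is a log2 ratio of sample over pool, and a value under 0 means less of the miRNA than in the proliferating pool. Whether the cultures in the pool are those on the proliferating arrays is not given.

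A miRNA guides a silencing complex to messenger RNAs through its seed, a short stretch near its 5′ end, and miRNAs with the same seed share many targets. Mmu-miR-106b, miR-93 and miR-25 are processed from the transcript of Mcm7, which encodes a subunit of the replicative DNA helicase, and in human cells the cluster is known to be driven by E2F factors and to restrain CDKN1A (miR-106b, miR-93) and BCL2L11 (miR-25). The X-linked miR-106a-363 cluster has no protein-coding host and is known to be weakly expressed in most adult mouse tissues. Myoblasts leave the cell cycle as they differentiate, and the comparisons below ask whether these miRNAs changed with that transition.

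All 6 members were matched to a mature sequence in RefSeq (build GRCm38.p6). The sequences are printed because their shared seeds, set in capitals at bases 2 to 8, define the 2 groups in which the members are read, and because a probe can bind a near-identical relative.
The first 4 members share the seed of miR-17-5p:
mmu-miR-106b-5p: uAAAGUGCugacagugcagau
mmu-miR-93-5p: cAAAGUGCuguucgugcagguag
mmu-miR-106a-5p: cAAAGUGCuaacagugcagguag
mmu-miR-20b-5p: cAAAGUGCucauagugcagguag
mmu-miR-17-5p: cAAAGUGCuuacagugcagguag
The other 2 members share the seed of miR-92a:
mmu-miR-25-3p: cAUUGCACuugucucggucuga
mmu-miR-363-3p: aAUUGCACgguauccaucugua
mmu-miR-92a-3p: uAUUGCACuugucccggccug

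The mature miR-106b lies at chr5:138165787-138165807, miR-93 at chr5:138165574-138165596 and miR-25 at chr5:138165332-138165353, all on the minus strand. Their 3 hairpins span 498 bases, and all lie within Mcm7. On the X chromosome miR-106a lies at chrX:52742541-52742563, miR-20b at chrX:52742159-52742181 and miR-363 at chrX:52741697-52741718, on the minus strand, in a cluster of 6 hairpins spanning 875 bases. Counted from 1 at the 5′ end and written from the member to its relative, miR-106a and miR-17-5p differed by A10U alone, over 23 bases. Mature miR-106b differed from miR-17-5p by U1C, G10U and A20G over the 21 bases compared and lacked its last 2 bases. Mature miR-25 differed from miR-92a by C1U, U14C and U18C over 21 bases, whereas miR-363 matched miR-92a at 10 of 21 positions. The array's names do not say which arm of a hairpin is measured, the printed arms are the ones that carry the family seeds, and the sequences of the probes were not used here. Cross-hybridisation between these relatives was not tested.

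The labels do not settle, array by array, in which dye the sample was labelled, and the direction of every value is therefore likely rather than given. For days 1, 2 and 4 it was taken from the agreement of the 12 arrays over 88 mouse probes, leaving out the members, the miR-17 cluster and miR-32. The correlation across probes was 0.639 to 0.965 between arrays turned alike and -0.687 to -0.241 between arrays turned oppositely. The side was set by distance from the proliferating arrays. The authors' deposited table of stage values gave the same turning for all 12 arrays, and it alone set the turning of the confluent arrays. On 2 arrays, day 1 array 4 and day 2 array 2, the channel farther from the proliferating arrays changed when muscle miRNAs were left out, although their turning came from the agreement of the 12 arrays. Muscle miRNAs were among the 88 probes behind the turning, so their direction is not an independent check of the cells' identity. With that turning, all 4 probes listed for skeletal muscle were higher at day 4, where 15.6% of all tested probes were higher. One of them, miR-499 (0.71), was detected in only 8 of 40 channels, and in the sample on 4 of the 12 arrays. Among them were miR-206, by 4.16, and a probe shared by miR-133a and miR-133b, by 3.87 (log2). Of the 9 probes for smooth muscle, fibroblast, endothelial and blood miRNAs 3 were tested, and at day 4 miR-143 (1.28) and miR-150 (0.64) were higher while miR-145 (0.02) did not pass. The other 6, which include both miR-126 probes, miR-223 and miR-451, were detected in 3 to 9 of 40 channels. The signals of the 9 probes, each in multiples of its threshold, summed to 14.1 to 39.7 in the day 4 samples and to 9.86 to 16.3 in the pool on the same arrays, and their part in the members' ratios was not tested.

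Only mmu-miR-106b was bright throughout. Detection was judged per channel, of which the 20 arrays have 40: 1 or both spots of a probe had to exceed, in background-subtracted median, percentile 95 of that channel's 114 spots that were empty or held negative controls. By this rule miR-106b was detected in 40 of 40 channels, with a signal of 1.40 to 14.4 times the threshold and a median of 6.26. For the other members the median signal lay below the threshold: miR-106a was detected in 21 channels (0.487 to 2.29 times the threshold) and miR-20b in 15 (0.540 to 1.95). Detection was rarer for miR-25, in 11 channels (0.296 to 1.48), for miR-363, in 6 (0.20 to 1.32), and for miR-93, in 5 (0.274 to 1.16).

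**Figure D1:**
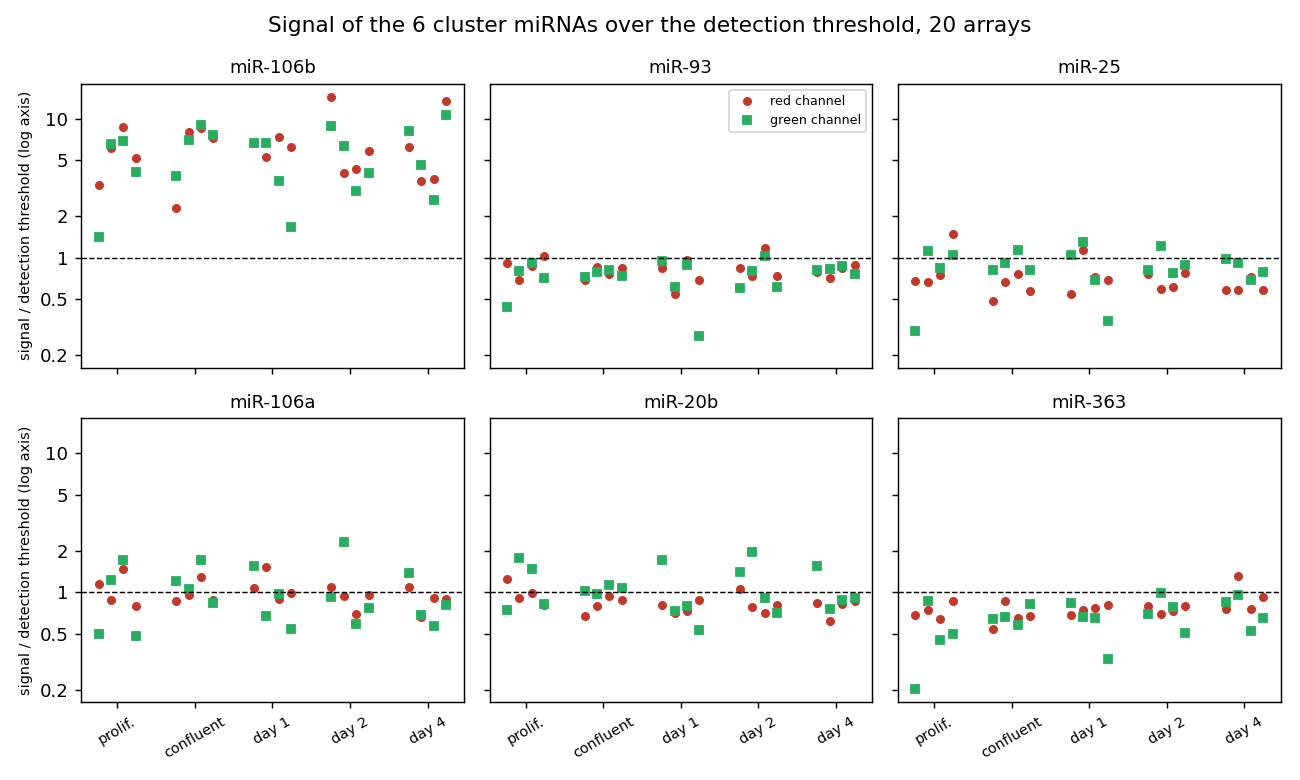
Signal of each member as a multiple of the detection threshold (log axis; dashed line at 1), for the red and green channel of each of the 4 arrays at 5 stages. All points of miR-106b lie above the line, while those of the other 5 members lie around or below it at every stage.

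The 3 members processed from the Mcm7 transcript differed in detection. On the 4 day 4 arrays the sample channel passed the threshold on 4 arrays for miR-106b, and on 0 for miR-93 and for miR-25. In the pool channel of those arrays it passed on 4 arrays for miR-106b, 0 for miR-93 and 2 for miR-25. Signals of different probes depend on how well each probe binds, so these counts do not rank the miRNAs by amount.

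Tests were limited to probes whose sample was detected on 3 or 4 arrays of some stage, and in proliferating cells either channel could count, which left 180 mouse probes and 3 members. miR-106b passed at every stage. miR-106a passed through the proliferating and day 1 arrays, at 3 of 4 each. miR-20b passed through the proliferating arrays only, at 3 of 4. At day 4 the sample of miR-20b was detected on 0 arrays and its pool on 1, and for miR-106a each was detected on 1. The day 4 ratios of both therefore compare signals near background.

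mmu-miR-106b fell at day 4. The ratios at day 4, after removal of the probe's red-over-green dye term of 0.36, were -0.55, -0.89, -0.13 and -0.90 on the 4 arrays. All 4 arrays lay below 0, and the third lay nearest to it. The sample's signal was 6.29, 3.55, 2.60 and 10.6 times the threshold on these arrays, against 8.11, 4.63, 3.65 and 13.4 for the pool. The pool had the higher multiple on every one of the 4. Each channel has its own threshold, so these multiples show detection and are no check of the ratio. The fitted ratio was -0.62 (SE 0.18, SD 0.36, n = 4, 95% confidence interval -0.98 to -0.25), a level 1.53-fold lower than in the pool, with a limma adjusted p of 0.00907 over the 180 probes. At day 4 28.3% of the tested probes passed the threshold of 0.05 and 12.8% passed it as lower. Of the 3 tested members 1 passed, a count too small to set apart from that background. Among the 23 probes that fell at day 4 miR-106b ranked 14th by size, and 6 of them had fallen at least 2-fold.

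This call was lost when either of 2 arrays was left out. Without array 2 the ratio was -0.52 (limma adjusted p = 0.0685), and without array 4 it was -0.52 (adjusted p = 0.0852). When proliferating arrays replaced the pool as control, the ratio ranged from -0.75 to -0.48 among 6 possible turnings of those arrays, 1 of which passed. Within the 2 day 4 arrays with the sample in red the mean ratio, dye term included, was -0.36, and within the 2 with the sample in green it was -0.87. The dye term, left in, sets these 2 means apart by construction. With it removed, the arrays with the sample in red read -0.55 and -0.89, and those in green -0.13 and -0.90. Without the dye term in the fit the fitted ratio was the same and the limma adjusted p was 0.124.

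Before day 4 miR-106b did not pass the test. In confluent cells its ratios were -0.55, -0.31, -0.14 and -0.11, all below 0, and the fitted ratio was -0.28 (SE 0.18, n = 4, limma adjusted p = 0.552) in a comparison in which 0.556% of the probes passed. Under the other 2 ways to turn the confluent arrays its size was 0.05 and 0.07. At day 1 the ratios were -0.10, -0.22, -0.57 and 0.57, at a fitted -0.08 (SE 0.18, SD 0.48, adjusted p = 0.816), where 15% of the probes passed. At day 2 they were -0.68, 0.45, -0.67 and -0.06, at a fitted -0.24 (SE 0.18, SD 0.55, adjusted p = 0.393), where 20% passed. The single positive array of each day was day 1 array 4 and day 2 array 2, the same 2 arrays whose farther channel changed without muscle miRNAs. Without these 2 arrays the day 1 ratio was -0.33 (limma adjusted p = 0.131), the day 2 ratio was -0.51 (adjusted p = 0.0193), and the day 4 call kept its side of the threshold. On the proliferating arrays, where no direction is known, the dye-adjusted ratio of miR-106b was 0.02 to 0.38 in size, and the day 4 values of arrays 1, 2 and 4 were larger than any of these.

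**Figure D2:**
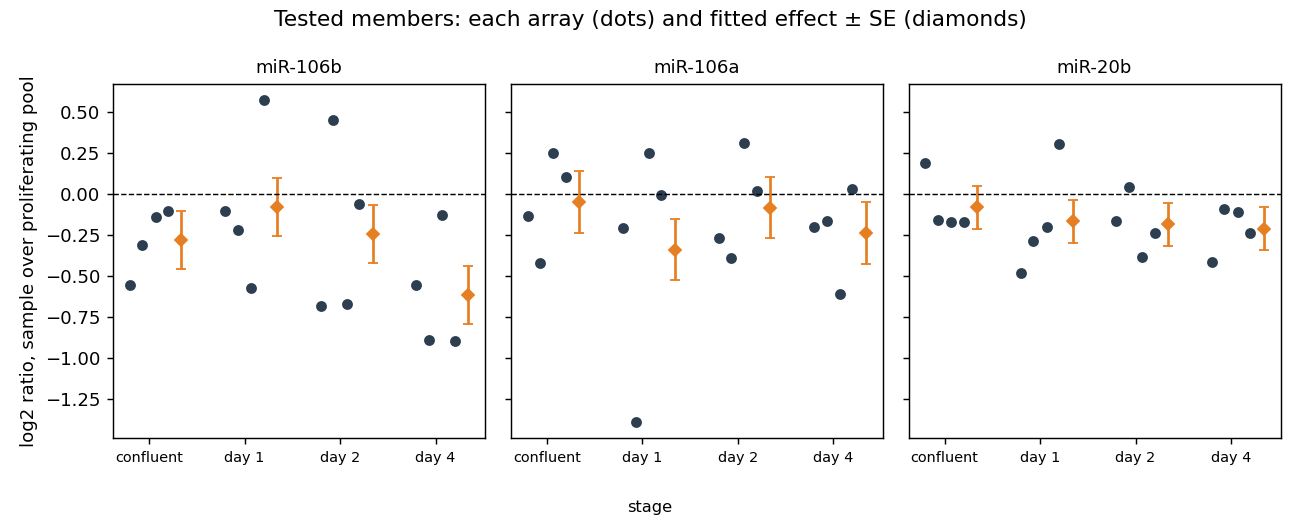
Log2 ratio of sample over proliferating pool for the 3 tested members, with the dye term removed, on each of the 4 arrays per stage (dots) and as fitted by limma with its SE (diamonds). miR-106b lies below 0 on all 4 arrays at day 4, with a fitted -0.62, while miR-106a and miR-20b stay within -0.34 to -0.05 as fitted. The day 4 ratios of miR-106a and miR-20b compare signals near background.

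Between stages the change of miR-106b did not pass. From day 1 to day 4 it was -0.54 (SE 0.25, 95% interval -1.05 to -0.02, limma adjusted p = 0.214), in a comparison in which 8.89% of the probes passed. It was -0.16 (SE 0.25) from day 1 to day 2 and -0.37 (SE 0.25) from day 2 to day 4, where 0.556% and 0% of the 180 probes passed limma's adjusted threshold and 15 and 13 had an unadjusted p under 0.05. The 4 arrays of day 4 overlapped with those of day 1 and of day 2.

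The partners of miR-106b in Mcm7 were mostly below detection. miR-25, of the miR-92a seed group, was below the threshold in the sample on 3 or 4 of 4 arrays at every stage from confluence on. In the fit over all 343 mouse probes its ratio was -0.43 at day 1 (SE 0.16, SD 0.46), -0.07 at day 2 (SE 0.16) and -0.26 at day 4 (SE 0.16, SD 0.33), n = 4 each. Its day 1 arrays read -0.55, -0.87, -0.52 and 0.23, so 3 lay below 0 and array 4 above it. miR-93, which has the miR-17 seed, was at 0.04, -0.01 and -0.06 (SE 0.13) at days 1, 2 and 4. These are ratios of signals that mostly did not pass the detection threshold and are given without a test.

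On the X chromosome, mmu-miR-106a had ratios of -0.21, -1.39, 0.25 and -0.01 at day 1. Array 2 alone was far below the others, and without it the fitted ratio moved from -0.34 (SE 0.19, SD 0.73, limma adjusted p = 0.260) to 0.04 (adjusted p = 0.944). On that array the sample was at 0.675 and the pool at 1.54 times the threshold, and the 2 spots differed by 2.75 in log2 ratio. At day 2 the ratio of miR-106a was -0.08 (SE 0.19, adjusted p = 0.816) and at day 4 -0.24 (SE 0.19, adjusted p = 0.447), and at both days arrays lay on either side of 0. The 95% interval at day 4, -0.63 to 0.15, includes the change seen for miR-106b.

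mmu-miR-20b, the other tested X-linked member with the miR-17 seed, read -0.41, -0.09, -0.11 and -0.24 at day 4. All 4 arrays lay below 0, and the fitted ratio of -0.21 (SE 0.13, 95% interval -0.48 to 0.06) did not pass (limma adjusted p = 0.282). At day 1 it was -0.17 (SE 0.13, adjusted p = 0.455) and at day 2 -0.19 (SE 0.13, adjusted p = 0.376), with 3 of 4 arrays below 0 at each. In confluent cells miR-106a was at -0.05 (SE 0.19) and miR-20b at -0.08 (SE 0.13). miR-363, of the miR-92a seed group, was at -0.11, -0.16 and -0.08 (SE 0.14) at days 1, 2 and 4 in the unfiltered fit, where its sample was detected on 0, 0 and 1 of 4 arrays.

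The miR-17 cluster and miR-32, the relatives by seed or cluster listed here, had 9 probes on the array, of which 5 were tested. Of these 5, 3 were lower at day 1, 5 at day 2 and 4 at day 4, where 5%, 7.22% and 12.8% of all tested probes were lower, with medians of -0.41, -0.78 and -1.28 beside medians over all tested probes of 0.00, 0.00 and 0.02. miR-17-5p itself was at -0.64 at day 1, -1.07 at day 2 and -1.48 at day 4 (SE 0.13, limma adjusted p = 0.00143, 1.41e-06 and 3.48e-09). Its relatives at day 4 were miR-20a at -1.41 (SE 0.14) and -1.06 (SE 0.17) on 2 probes and miR-18 at -1.28 (SE 0.14), each past the threshold. miR-17-3p, the opposite arm of the miR-17 hairpin, was at -0.12 (SE 0.09, adjusted p = 0.389) at day 4 after -0.27 (adjusted p = 0.0279) at day 2. The probe for mouse miR-17-5p also carries the name of human miR-106a, and whether it reads both was not tested.

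**Figure D3:**
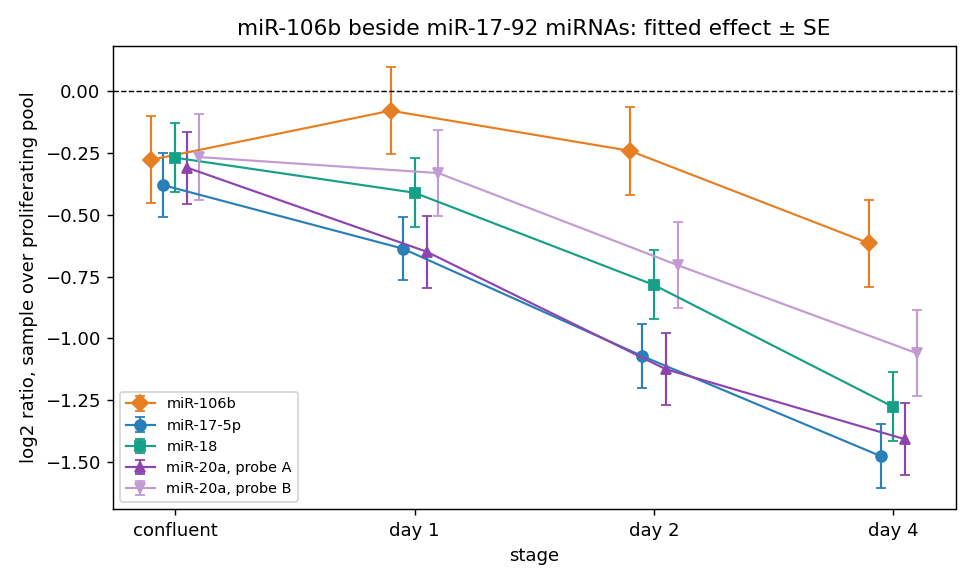
Fitted log2 ratio of sample over proliferating pool with its SE for miR-106b and 4 probes of the miR-17 cluster (A and B are the 2 miR-20a probes, at -1.41 and -1.06 at day 4) at confluence and days 1, 2 and 4. The 5 probes lie between -0.38 and -0.27 in confluent cells, and at day 4 miR-106b lies at -0.62 and the others between -1.48 and -1.06.

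The difference between miR-17-5p and miR-106b was taken within each array, from ratios with the dye term left in (0.36 for miR-106b and 0.28 for miR-17-5p). The difference was -0.23, -0.54, -0.24 and -1.22 on the day 1 arrays, -0.41, -1.33, -0.63 and -0.94 on the day 2 arrays, and -0.98, -0.78, -0.88 and -0.80 on the day 4 arrays. It was below 0 on 12 of 12 arrays, so the ratio of miR-17-5p was the lower on each, given the likely direction, with which this sign would turn. With the dye terms removed it was -1.25 to -0.15, again below 0 on 12 of 12 arrays, with the same mean. The mean was -0.75 (SD 0.35, n = 12; two-sided exact sign-flip permutation test, p = 0.0004883, the smallest that 12 arrays can give). By stage the mean was -0.56, -0.83 and -0.86, and 4 arrays cannot give an exact p below 0.125. The 6 arrays with the sample in red had a mean of -0.86 (SD 0.41), and the 6 in green had -0.63 (SD 0.28). Without the 2 arrays whose farther channel changed when muscle miRNAs were left out, the mean was -0.64 over the other 10 (exact permutation p = 0.001953). At day 4 the fitted ratio of miR-17-5p, -1.48, was the lowest of the 180 tested probes. At days 1 and 2 it was -0.64 and -1.07, where the lowest were -0.65 and -1.12. A difference below 0 could thus be found for many other probes, for which it was not taken. These p-values therefore do not single out miR-106b.

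**Figure D4:**
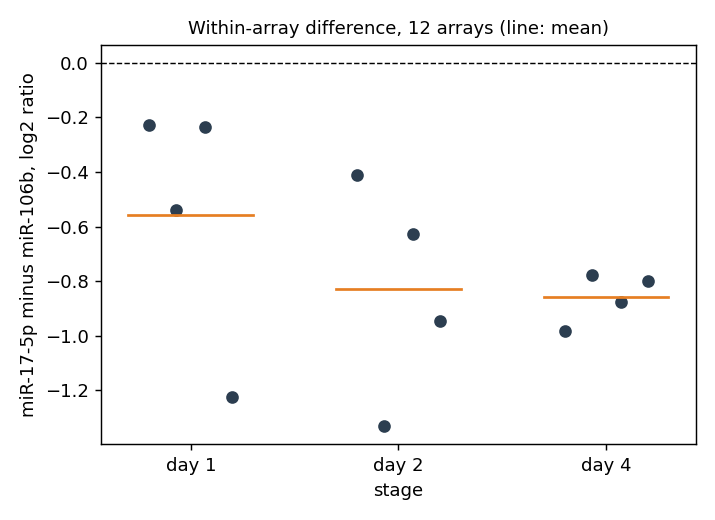
Difference in log2 ratio between miR-17-5p and miR-106b on each of the 12 arrays of days 1, 2 and 4 (dots), dye terms included, with the stage mean (line). Every dot lies below 0, and the day 4 arrays are closest together, between -0.98 and -0.78.

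By its ratios over the 12 arrays of days 1, 2 and 4, the profile most like that of miR-106b was that of miR-21 (Pearson r = 0.916), a widely expressed miRNA tied to growth. It was followed by miR-20a on the probe that read -1.06 at day 4 (r = 0.862), miR-31 (0.825), miR-18 (0.815) and miR-155 (0.813). At day 4 miR-31 was at -1.08 (SE 0.16, limma adjusted p = 7.46e-06), miR-155 at -0.66 (SE 0.13, adjusted p = 0.000386) and miR-21 at -0.34 (SE 0.15, adjusted p = 0.100). miR-17-5p ranked 16th among the tested probes, at r = 0.735. These correlations describe 12 arrays that share the pool, the turning and, within an array, its normalisation, and they carry no test.

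The array also held probes without a mouse name for these clusters, and 3 of 7 were tested, with p adjusted over the 380 detected probes of that kind. hsa-miR-18b, which bears the name of another miRNA of the miR-106a-363 cluster, was detected in 40 of 40 channels and read -0.38 (SE 0.19, limma adjusted p = 0.218) at day 1, -0.68 (adjusted p = 0.0326) at day 2 and -1.21 (adjusted p = 9.92e-05) at day 4, where 10.3%, 6.84% and 13.2% of such probes passed. Its values lay beside those of mouse miR-18, at -0.41, -0.78 and -1.28, and whether both probes read the same miRNA was not tested. hsa-miR-363*, named for the opposite arm of human miR-363, was detected in 40 of 40 channels and did not pass at any of these days (-0.40, -0.17 and 0.20, SE 0.14). The mouse miR-363 probe was detected in 6 of 40 channels, and whether hsa-miR-363* reads the mouse hairpin was not tested. dre-miR-18b*, a zebrafish probe, was detected in 38 channels and did not pass either. The other 4, the rat probe rno-miR-20b* and the zebrafish probes dre-miR-20b, dre-miR-93 and dre-miR-18b, were detected in 2 to 10 of 40 channels and were not tested.

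In the authors' deposited table of stage values miR-106b stood at -0.02 in proliferating cells, -0.14 at confluence, -0.03 at day 1, -0.10 at day 2 and -0.50 at day 4. Its proliferating values followed the proliferating arrays under no turning (best correlation across probes 0.027, against 0.593 to 0.844 at the other stages). The same deposited table had miR-106a lowest at day 1, at -0.53, and miR-25 lowest at day 1, at -0.31. For miR-93, miR-20b and miR-363 the values of the authors' deposited table lay between -0.20 and 0.09 at all stages.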

How the data were processed

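Values came from 20 two-colour arrays, 4 for each of 5 stages. The authors deposited raw median and mean intensity per spot and channel with a morphological background intensity, and per the file headers the log2 ratio was red over green. The authors' deposited log2 ratio matched background-subtracted medians within 5e-10. The normalisation behind the deposited table of stage values is not given in the sources used here. The number of arrays limits precision.

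Medians were corrected with normexp (offset 50), normalised by loess over each array (control spots weighted 0), and averaged over 2 spots, with limma 3.58.1 in R 4.3.3. A model with a dye term and stage effects was fitted over all 20 arrays (15 residual degrees of freedom, median prior 7.32), and two-sided moderated p-values were Benjamini-Hochberg adjusted over 180 mouse probes at a threshold of 0.05. The sample's channel came from the data, except that the confluent turning was read from the deposited table. The mouse probes of the members, the miR-17 cluster and miR-32 were left out of that step. Probes of other species with related names were kept where the deposited table was used. The 3 members below detection were given no test, although the plan had named one. The fit was checked on simulated data. P-values measure the spread between arrays, to which the proliferating arrays contribute. They leave out how far the shared pool may lie from other proliferating cultures. Named items were all 6 members, the miR-17 cluster list with miR-32, probes of other species with the members' or miR-18b names, and the 5 profiles closest to miR-106b. Members and lists were chosen with earlier results of these data known. Alternatives covered background, normalisation, filters, dye term, control, turning and left-out arrays.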

Additional observations from a re-analysis of the deposited data

Results flagged for a closer look

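Among 24 groups of 4 arrays (6 members at 4 stages), 2 held an array far from the other 3 by Dixon's ratio of gap to range, and chance flags about 1 in 20 such groups. For miR-25 at day 4 the ratio was 0.85: array 4 read 0.23 and the other 3 read -0.47 to -0.36, all from a probe near or below the detection threshold. For miR-20b in confluent cells the ratio was 0.965: array 1 read 0.19 and the other 3 read -0.17 to -0.16.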

How the results depend on the processing

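No paired analysis was possible because the labels give no replicate numbers that groups share. All values are log2 ratios or counts of called probes, in the order day 1, day 2, day 4 where 3 are given, and the cause of each change was not tested unless the setting's own construction shows it. Turning every array the other way reverses by construction miR-106b to 0.080, 0.24 and 0.62, miR-106a to 0.34, 0.083 and 0.24 and miR-20b to 0.17, 0.19 and 0.21, with miR-25 at 0.43 (day 1) and 0.26 (day 4) and miR-363 at 0.11 (day 1) and 0.16 (day 2). Without the dye term 5, 13 and 28 probes passed in place of 27, 36 and 51, and miR-106b at day 4 was -0.62 (limma adjusted p = 0.124).

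With proliferating arrays as control, the 6 ways to turn them gave, where the count moved by over 1.5 times, 2, 6, 15, 12 and 14 probes at day 1, 23, 15, 15 and 18 at day 2, and 31, 33 and 33 at day 4. miR-106b at day 4 was -0.55, -0.62, -0.48, -0.68 and -0.61 in the 5 ways that did not pass (limma adjusted p 0.0655 to 0.170) and -0.75 in the one that did (0.0389), and at day 1 it was 0.054 in the third way. In the third way miR-20b at day 4 was -0.48 (adjusted p = 0.0461), miR-93 was -0.24 at day 2 and -0.30 at day 4, miR-25 was -0.32 at day 2 and miR-363 was -0.27 at day 1. In the sixth, miR-106a was 0.20 at day 2 and 0.045 at day 4, miR-20b was 0.10, 0.079 and 0.051, miR-93 was 0.23 at day 2 and 0.17 at day 4, miR-25 was 0.18 at day 2 and miR-363 was 0.054 at day 1. miR-363 at day 1 was -0.0039 in the first way and -0.21 in the fourth.

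Without the 2 arrays whose farther channel changed when muscle miRNAs were left out, miR-106b was -0.33 at day 1 (limma adjusted p = 0.131), and at day 2 it was -0.51 (adjusted p = 0.0193) and miR-106a at day 2 was 0.018. For miR-20b the change from day 1 to day 2 turned to 0.19 and that from day 1 to day 4 to 0.14 with median centring, the first was 0.0022 with plain subtraction, and day 2 to day 4 was 0.018 with mean foreground. Loess followed by Aquantile leaves ratios as they are by construction.

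Leaving out 1 array at a time gave 13 to 25 called probes at day 1 (13 without day 1 array 2), 25 to 36 at day 2 and 39 to 49 at day 4. miR-106b ranged from -0.31 to 0.095 at day 1, from -0.49 to -0.085 at day 2 and from -0.79 to -0.52 at day 4, where it did not pass without array 2 or without array 4. miR-106a ranged from -0.55 to 0.036 at day 1 (positive without array 2) and from -0.22 to 0.026 at day 2 (positive without array 2), and from -0.33 to -0.10 at day 4, nearest to 0 without array 3. miR-20b at day 1 ranged from -0.33 (without array 4) to -0.055 (without array 1). Of the members below detection, miR-25 ranged from -0.66 to -0.27 at day 1 and from -0.44 to -0.19 at day 4, the lowest without array 4 each time, and miR-363 at day 4 from -0.32 (without array 2) to 0.04 (without array 4). The rest were miR-25 at day 2 from -0.11 to -0.014, miR-363 from -0.15 to -0.063 at day 1 and from -0.28 to -0.064 at day 2, miR-20b from -0.27 to -0.12 at day 2 and from -0.26 to -0.14 at day 4, and miR-93 from -0.13 to 0.15 over the 3 days. For miR-106b the change from day 1 to day 4 ranged from -0.71 to -0.30 and that from day 2 to day 4 from -0.55 to -0.13. The change from day 1 to day 2 ranged from -0.41 to 0.071 for miR-106b, from -0.12 to 0.47 for miR-106a and from -0.13 to 0.15 for miR-20b. That from day 1 to day 4 ranged from -0.27 to 0.31 for miR-106a and from -0.16 to 0.12 for miR-20b, and that from day 2 to day 4 from -0.098 to 0.054 for miR-20b. The difference between miR-17-5p and miR-106b kept its sign and stayed between -0.795 and -0.695.

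Detection of the dim members depended on the rule, since both stricter rules can only remove channels. With percentile 99, miR-93 was detected in 0 channels, miR-25 in 4, miR-106a in 14, miR-20b in 9 and miR-363 in 1. With both spots required, miR-93 was detected in 1, miR-25 in 3, miR-106a in 12, miR-20b in 8 and miR-363 in 0. miR-106b stayed at 40 of 40 under both. Signal over background thus limits every member except miR-106b.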
